A study of Mus musculus with 14 samples.

Results

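The Lhx6 GABAergic neurons of the mouse lateral hypothalamic area described here were 174 cell barcodes of 28410 in all. They were chosen by transcript counts, in unique molecular identifiers (UMIs, the tags that count single mRNA molecules). A barcode was taken when it held at least 1000 UMIs with at most 20% from mitochondrially encoded genes. It also held at least 2 UMIs of Gad1, Gad2 and Slc32a1 together, more of these than of Slc17a6, under 2 of Ecel1 and Hmx3 together, under 3 of Nts and under 5 of Sst. The last condition was at least 1 UMI of Lhx6. Of the 9891 barcodes past the first filters, 2304 met every condition but the last, and the 2130 of these with 0 Lhx6 UMIs are called Lhx6-negative GABAergic neurons below. The study profiled tissue punches of 14 male wild-type C57BL/6J mice by Drop-seq, in which single cells are caught in droplets with barcoded beads and the 3′ ends of their mRNAs are counted. Of these, 7 ate a high fat diet (high fat diet mice) and 7 a taste-matched chow (control mice), both without restriction and on a reversed light cycle. Age is not given in the sources used here. Each library came from 1 mouse, and was sequenced in pool 1 (4 high fat diet and 4 control mice) or pool 2 (3 and 3), which ran on lanes of their own. The series concerns the lateral hypothalamus in obesity, and replicate numbers only follow the order in which mice are listed within a diet.

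Lhx6 encodes a LIM homeodomain transcription factor, and on GRCm38 the gene lies on chromosome 2, from 36081953 to 36105408 on the minus strand. During development Lhx6 acts downstream of Nkx2-1 in cells of the medial ganglionic eminence, where it directs the formation of cortical interneurons with parvalbumin or somatostatin. The hypothalamus and the neighbouring zona incerta hold Lhx6 neurons of their own, which release GABA and are known in mice for their part in sleep. GABAergic neurons make their transmitter with the enzymes encoded by Gad1 and Gad2 and load it into vesicles with the transporter encoded by Slc32a1.

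The Lhx6 count behind the choice was low. The 174 neurons held 266 Lhx6 UMIs, with 1 UMI in 108 neurons, 2 in 48 and 3 or more in 18. Just outside the threshold lay the 2130 barcodes with 0. Lhx6 neurons were also deeper, with a median of 4991.5 UMIs and 2550.5 genes per neuron against 3384.5 UMIs and 1950.5 genes in Lhx6-negative neurons, and a barcode with 0 Lhx6 UMIs is not shown to lack Lhx6 mRNA. Outside the GABAergic gate Lhx6 was rare. It was found in 1 of 1098 glutamatergic barcodes (0.0911%, median 4703.5 UMIs) and in 1 of 3374 oligodendrocyte barcodes (0.0296%, median 1463 UMIs). The exclusion steps removed 14 barcodes with Lhx6 for Ecel1 and Hmx3, 7 for Nts and 6 for Sst, and 6 more had Lhx6 but under 2 UMIs of the GABA genes. None of the 174 shared its barcode sequence with another library, and Scrublet, which scores barcodes for likeness to simulated doublets, called 6 of them.

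The label was checked against its markers. Slc32a1, used by the rule, was found in 88.5% of Lhx6 neurons, and Gad2, also used by the rule, in 99.4%. Dlx1, a homeodomain factor of forebrain GABAergic neurons, was found in 97 of 174 (55.7%) against 3 of 1098 glutamatergic barcodes (0.273%). Dlx6, a relative of Dlx1, was found in 26 (14.9%) and Crhbp, whose product binds corticotropin-releasing hormone, in 18 (10.3%). Dlx6 and Crhbp did not set Lhx6 neurons apart from other GABAergic neurons. Dlx6 averaged 28.1 ± 14.1 CPM (UMIs of the gene per 1000000 UMIs of the group in a mouse) in Lhx6 neurons and 50.1 ± 12.6 CPM in Lhx6-negative neurons (SD, n = 9 mice each), lower in 9 of 9 mice, with a log2 fold change of -0.83 ± 0.28 (SE) that missed the threshold (edgeR adjusted p = 0.0815). Crhbp, too low for the main test, averaged 26.7 ± 14.6 CPM in Lhx6 neurons and 41.1 ± 24.2 CPM in Lhx6-negative neurons. Dlx1 averaged 193 ± 38.6 CPM in Lhx6 neurons and 157 ± 30.7 CPM in Lhx6-negative neurons (log2 fold change 0.33 ± 0.13, adjusted p = 0.154). Dlx1, Dlx6 and Crhbp were thus not called higher in Lhx6 neurons than in Lhx6-negative GABAergic neurons, and the genes of GABA synthesis and transport, which chose the barcodes, give no check of the label.

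The share of Lhx6 neurons among GABAergic barcodes did not differ between the diets beyond the spread between mice. Among high fat diet mice, replicates 1 to 6 had 20, 12, 34, 19, 15 and 3 Lhx6 neurons, or 6.54, 5.48, 10.2, 6.17, 16.7 and 3.85% of their GABAergic barcodes. Control replicates 1 to 5 had 15, 8, 22, 12 and 14, or 8.52, 7.84, 8.40, 5.66 and 7.95%. No Lhx6 neuron was found among 20 GABAergic barcodes of control replicate 6 or 18 of control replicate 7, which allows a share of up to 15% and 16.7% (3 counts), nor among 3 of high fat diet replicate 7, which was left out of the test. The groups overlapped, and only high fat diet replicate 5, with 15 of 90 barcodes (95% exact binomial interval 9.64 to 26%, counting error only), stood above the rest. The share averaged 8.15 ± 4.67% in high fat diet mice (SD, n = 6) and 5.48 ± 3.86% in control mice (n = 7), a difference of 2.66 percentage points within the spread between mice (two-sided exact permutation p = 0.284). Within pool 1 the means were 7.63% in high fat diet mice and 6.19% in control mice (exact p = 0.743), and within pool 2 they were 8.66% in high fat diet mice and 4.54% in control mice (exact p = 0.6, where 0.1 is the smallest possible).

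Depth per neuron, which bears on whether a rare transcript is caught, varied between mice. The median UMIs per Lhx6 neuron were 3533.5, 6724.5, 3290.5, 3514 and 7511 in high fat diet replicates 1 to 5, against 5107, 6064, 7596.5 and 7717.5 in control replicates 1, 3, 4 and 5. Over both pools the diets overlapped (difference -0.15 on the log10 scale, exact permutation p = 0.143), but within each pool every high fat diet mouse lay below every control mouse. Means were 3446 in high fat diet mice and 5586 in control mice of pool 1 (n = 3 and 2, exact p = 0.1) and 7118 in high fat diet mice and 7657 in control mice of pool 2 (n = 2 each, exact p = 0.333), each the smallest p that its pool allows. After each barcode was thinned at random to 1000 UMIs, 3.50 ± 2.13% of GABAergic barcodes kept a Lhx6 UMI in high fat diet mice and 0.962 ± 0.968% in control mice (SD, n = 6 and 7, exact permutation p = 0.0140). The share expected over all such thinnings, an alternative added after seeing the data, was 2.69 ± 1.20% in high fat diet mice and 1.32 ± 1.02% in control mice (exact p = 0.0524). The single random thinning thus passed the threshold of 0.05, and the share expected over thinnings missed it.

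**Figure D1:**
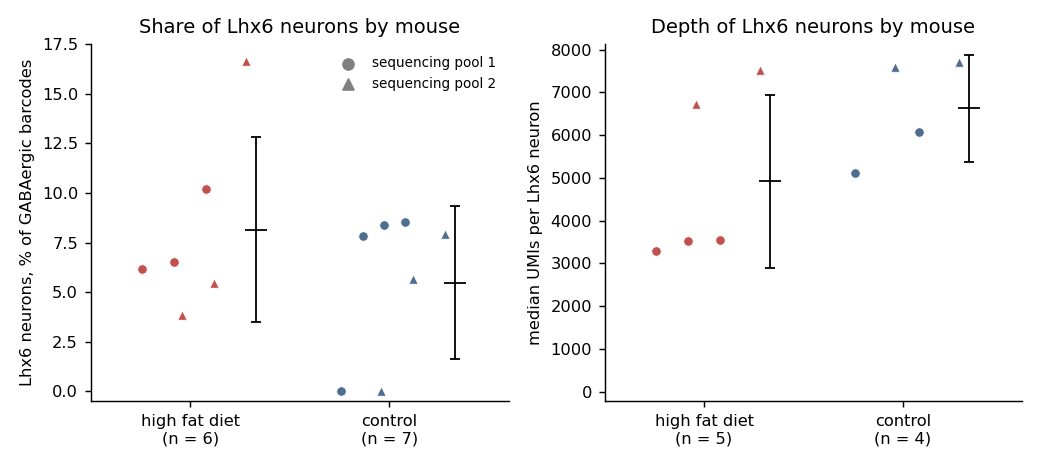
Share of Lhx6 neurons among GABAergic barcodes (left, %) and median UMIs per Lhx6 neuron (right), 1 point per mouse, with the mean and SD as a bar and the sequencing pool as the marker shape. Shares overlap between the diets, with 1 high fat diet mouse at 16.7% and 2 control mice at 0, and among mice with at least 10 Lhx6 neurons the high fat diet mice of pool 1 had the fewest UMIs per neuron, 3290.5 to 3533.5.

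Next, Lhx6 neurons were set against Lhx6-negative neurons of the same mice, to describe what else distinguishes them. Counts were summed per mouse and group in the 9 mice with at least 10 Lhx6 neurons (5 high fat diet, 4 control; 163 Lhx6 and 1920 Lhx6-negative neurons), and edgeR's quasi-likelihood test with the mouse as a block and Benjamini-Hochberg adjustment was run on all genes that passed its filter. Of 4841 genes outside the rule, 82 were higher in Lhx6 neurons (1.69%) and 80 lower (1.65%). Each SE is that of the log2 fold change, taken from the F value of the fit, and means are over mice.

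The largest called log2 fold change upward was that of Crh, which encodes corticotropin-releasing hormone, the peptide best known for starting the stress response. Crh ran from 22.4 through a median of 207 to 926 CPM in Lhx6 neurons of the 9 mice, against 4.83, 65.0 and 196 CPM in Lhx6-negative neurons. It was higher in 9 of 9 mice, although the ranges overlap, and its log2 fold change was 2.19 ± 0.39 (adjusted p = 0.0197). The call ended without high fat diet replicate 2 (log2 fold change 2.08, adjusted p = 0.0730) or replicate 3 (2.175, adjusted p = 0.0685), the mice with the highest Crh, 773 and 926 CPM. Sema3c, a secreted guidance cue of the semaphorin family, ran from 38.7 through 86.4 to 253 CPM in Lhx6 neurons, against 17.9, 31.7 and 102 CPM in Lhx6-negative neurons (log2 fold change 1.44 ± 0.23, adjusted p = 7.27e-06). One library, control replicate 1, gave the 253 CPM, and the call held without any 1 mouse.

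Phactr2, which encodes a regulator of protein phosphatase 1 and actin, averaged 151 ± 56.0 CPM in Lhx6 neurons and 58.9 ± 14.6 CPM in Lhx6-negative neurons (SD, n = 9), with no overlap between the lowest Lhx6 value of 94.2 CPM and the highest Lhx6-negative value of 90.5 CPM. Rgs4, an inhibitor of G protein signalling, averaged 229.7 ± 79.4 CPM in Lhx6 neurons and 102 ± 28.4 CPM in Lhx6-negative neurons (log2 fold change 1.17 ± 0.14, adjusted p = 2.72e-10). Prlr, the receptor of prolactin, averaged 156 ± 58.4 CPM in Lhx6 neurons and 73.7 ± 25.4 CPM in Lhx6-negative neurons (log2 fold change 1.13 ± 0.17, adjusted p = 2.35e-06). These 5 genes, Crh, Sema3c, Phactr2, Rgs4 and Prlr, had the largest log2 fold changes among the named genes that rose, over 9 mice. Each was higher in Lhx6 neurons of every one of the 9 mice.

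The other 10 named genes that rose had log2 fold changes of 0.80 to 1.03 and were higher in 8 or 9 of 9 mice. Mef2c, a transcription factor of neuronal maturation, averaged 131 ± 68.6 CPM in Lhx6 neurons and 62.7 ± 18.4 CPM in Lhx6-negative neurons. Cplx1, a complexin that clamps and promotes vesicle fusion, ran from 403 through 591 to 889 CPM in Lhx6 neurons, against 253, 306 and 368 CPM in Lhx6-negative neurons, with no overlap (log2 fold change 0.90 ± 0.09, adjusted p = 3.10e-11). Gfra1, a receptor subunit for glial cell line-derived neurotrophic factor, averaged 103 ± 44.2 CPM in Lhx6 neurons and 55.5 ± 15.8 CPM in Lhx6-negative neurons. Ppargc1a, a coactivator of mitochondrial genes, averaged 77.5 ± 21.8 CPM in Lhx6 neurons and 45.2 ± 9.86 CPM in Lhx6-negative neurons. The remainder were Ndrg2, Mpped2, Runx1t1, Rasgrp2, Zfp804a and Smim17. Of these 10, Mpped2 lost its call without high fat diet replicate 1 or control replicate 5 (adjusted p of 0.0819 and 0.158). Zfp804a lost it without high fat diet replicate 1, 2 or 5, Smim17 without high fat diet replicate 4 or 5, and Ppargc1a without high fat diet replicate 1, 3 or 5 or control replicate 3 (adjusted p of 0.0533 to 0.181).

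**Figure D2:**
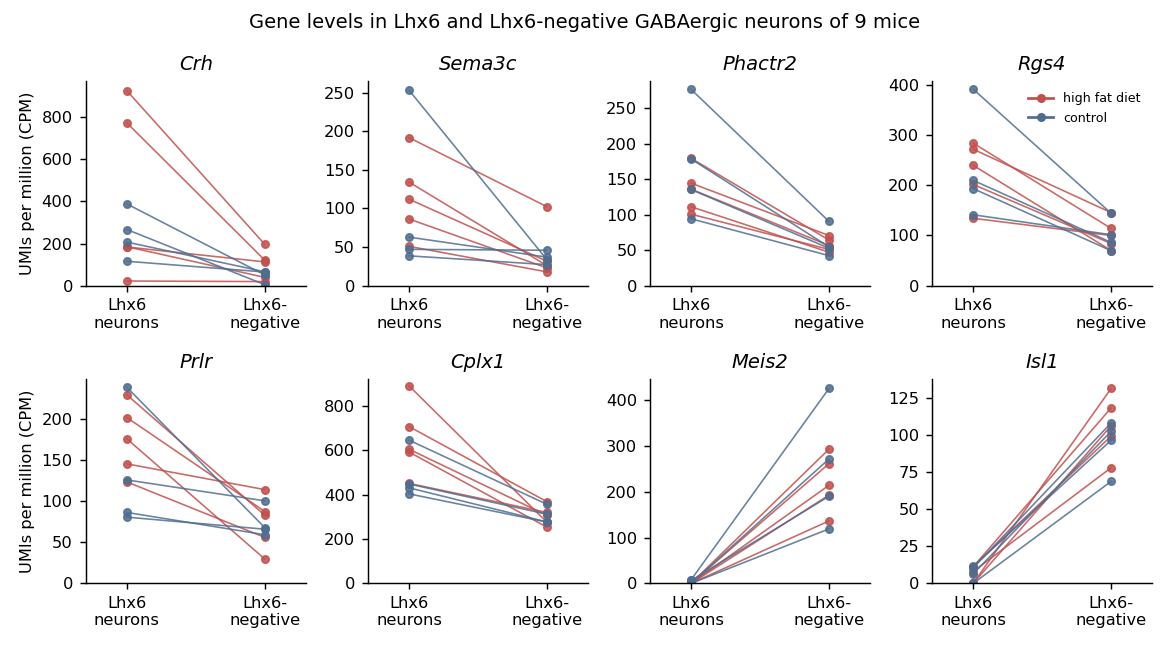
Level of 8 genes (CPM, linear axes from 0) in Lhx6 and Lhx6-negative GABAergic neurons, with 1 line per mouse (9 mice) coloured by diet. Crh, Sema3c, Phactr2, Rgs4, Prlr and Cplx1 are higher in Lhx6 neurons of every mouse, and Meis2 and Isl1 are close to 0 there.

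Among genes that were lower in Lhx6 neurons, 2 transcription factors were close to absent. Meis2, a TALE homeodomain factor, had 2 UMIs in 174 Lhx6 neurons and 1937 in 2130 Lhx6-negative neurons, or 1.93 CPM against 219.7 CPM over all barcodes. The ratio, Lhx6 over Lhx6-negative, was 0.00878 (95% exact interval 0.00106 to 0.0318, counting error only). Meis2 was at 0 CPM in Lhx6 neurons of 7 mice and at 6.45 and 7.85 CPM in those of 2, against a lowest, median and highest level of 119, 214 and 425 CPM in Lhx6-negative neurons (adjusted p = 1.94e-31). Isl1, a LIM homeodomain factor like Lhx6 that marks many hypothalamic GABAergic neurons, ran from 0 through 7.99 to 11.5 CPM in Lhx6 neurons, against 68.8, 103 and 132 CPM in Lhx6-negative neurons (log2 fold change -3.94 ± 0.35, adjusted p = 1.29e-15). Neither gene overlapped between the groups in the 9 mice.

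Pax6 and Tcf7l2, transcription factors of other GABAergic and thalamic lineages, were not found in any Lhx6 neuron, which allows a level of up to 2.89 CPM (3 UMIs over all Lhx6 neurons). In Lhx6-negative neurons Pax6 was at 24.6 CPM and Tcf7l2 at 27.3 CPM over all barcodes, so that Pax6 was at least 8.50-fold and Tcf7l2 at least 9.44-fold lower in Lhx6 neurons. Both fell under the filter of the main test and were called lower when every gene was tested (adjusted p = 2.10e-08 and 5.91e-07). Low Tcf7l2 was not particular to Lhx6 neurons. In the GABAergic barcodes set aside, Tcf7l2 stood at 3.77 CPM for Nts, 3.79 CPM for Sst and 5.67 CPM for Ecel1 and Hmx3. Pax6 was also low in those set aside for Nts (3.77 CPM), but stood at 17.0 CPM for Ecel1 and Hmx3 and 75.2 CPM for Sst. These levels were not tested against those of Lhx6 neurons.

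Lamp5, a membrane protein of certain GABAergic neurons, ran from 0 through 6.45 to 25.5 CPM in Lhx6 neurons, against 63.4, 99.0 and 127 CPM in Lhx6-negative neurons (log2 fold change -3.32 ± 0.33). Lypd1, an inhibitor of nicotinic receptors, averaged 27.2 ± 26.1 CPM in Lhx6 neurons and 177 ± 30.5 CPM in Lhx6-negative neurons. Ddc, the decarboxylase that makes dopamine and serotonin, averaged 22.8 ± 18.2 CPM in Lhx6 neurons and 108 ± 53.7 CPM in Lhx6-negative neurons. Cacna2d1, an auxiliary calcium channel subunit, averaged 30.8 ± 19.0 CPM in Lhx6 neurons and 103 ± 24.0 CPM in Lhx6-negative neurons, and Gpr83, a G protein-coupled receptor, averaged 21.8 ± 18.0 CPM in Lhx6 neurons and 63.0 ± 27.8 CPM in Lhx6-negative neurons.

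Pmch, the precursor of melanin-concentrating hormone (MCH), also ranked among the fallen genes, with a median of 52.4 CPM in Lhx6 neurons and 3230 CPM in Lhx6-negative neurons. That value rests on few barcodes of the Lhx6-negative group: 22 had at least 20 Pmch UMIs, while no Lhx6 neuron had more than 13. Without barcodes of at least 20 Pmch or Hcrt UMIs in either group, an alternative added after seeing the data, the log2 fold change of Pmch was 0.089 (adjusted p = 0.949). Hcrt transcripts were found in 37.4% of Lhx6 neurons, with at most 3 UMIs in any, at 83.9 CPM over all barcodes. They were found in 27.1% of the shallower oligodendrocyte barcodes, at 261 CPM. Hcrt was called lower in Lhx6 than in Lhx6-negative neurons (log2 fold change -0.70 ± 0.17, edgeR adjusted p = 0.00417), in 9 of 9 mice. The call ended after depth matching (-0.54, adjusted p = 0.329) and without barcodes of at least 20 Pmch or Hcrt UMIs (-0.50, adjusted p = 0.136). The source of these transcripts was not tested.

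Apod, Trf and Cryab, genes rich in oligodendrocytes, were lower in Lhx6 neurons. So were 4 of 8 measured genes of an oligodendrocyte list (Mal, Cldn11, Mag and Mobp), and 0 were higher. Of all genes tested, 1.65% were lower and 1.69% higher. The list's median log2 fold change was -1.10, against 0.01 over all genes tested. The 10 genes of that list summed to 340 through 409 to 2572 CPM in Lhx6 neurons, against 1195, 2127 and 3189 CPM in Lhx6-negative neurons, and the sum was lower in 8 of 9 mice. Lhx6 neurons were also the deeper group, and the part of depth and of oligodendrocyte RNA in these genes was not tested. When Lhx6-negative barcodes were matched to Lhx6 neurons on UMI total, 1 gene of the list was measured and 0 passed. Mal, Mag and Mobp each lost their call without any 1 of 5 or 6 of the 9 mice (adjusted p of 0.0585 to 0.203), Cryab without high fat diet replicate 3 or control replicate 5 (0.0571 and 0.121), and Trf was not measured without high fat diet replicate 4. Of 8 astrocyte markers, 1, Aldoc, was measured, and it was higher in Lhx6 neurons by 0.25 (log2, adjusted p = 0.0197). Its call ended after depth matching (0.0012, adjusted p = 0.999) and without any 1 of 4 of the 9 mice (adjusted p of 0.0534 to 0.144), and Gfap, Aqp4 and Gja1 were at 0 in Lhx6 neurons. The 5 markers of glutamatergic neurons outside the rule, so without Slc17a6, summed to a median of 0 CPM in Lhx6 neurons and 37.0 CPM in Lhx6-negative neurons. The 4 of dopaminergic neurons summed to 74.1 CPM in Lhx6 neurons and 133 CPM in Lhx6-negative neurons.

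**Figure D3:**
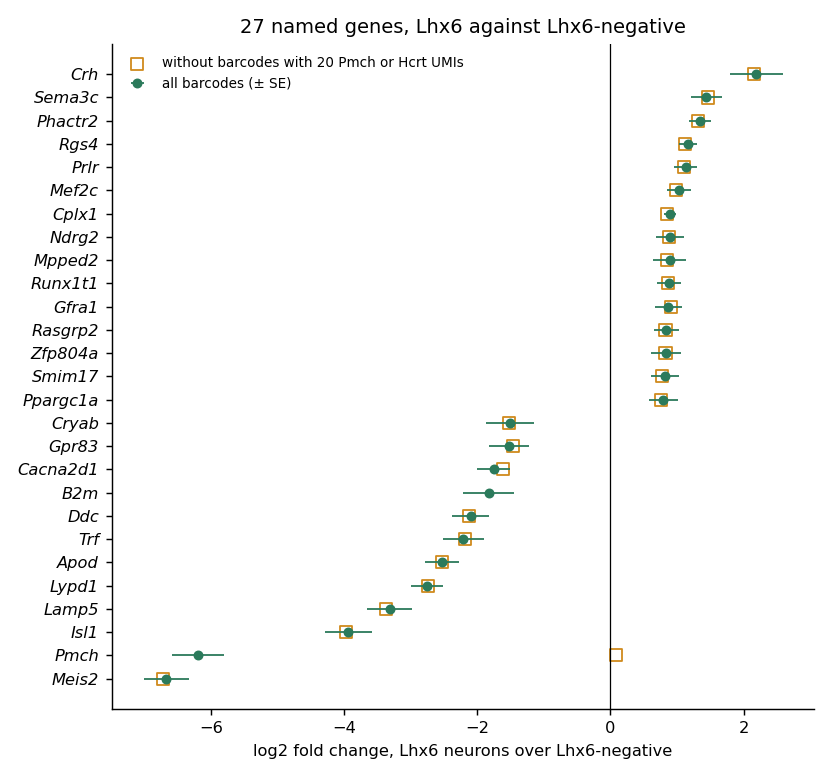
log2 fold change of the 27 named genes, Lhx6 over Lhx6-negative neurons, with SE (filled points), and the same after barcodes with at least 20 Pmch or Hcrt UMIs were removed (squares). Pmch alone moves to 0.089; B2m has no square because it was not tested in that fit.

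Gene lists placed these differences among pathways. Over all 4841 genes tested, 1.69% rose and 1.65% fell, and the counts of each list below stand beside these shares. Of 25 genes of the programme of interneurons from the medial ganglionic eminence, 9 were measured. Tac1, the precursor of substance P, fell. Kcnc1, a fast potassium channel, did not pass, with 412 ± 73.2 CPM in Lhx6 neurons and 381 ± 48.1 CPM in Lhx6-negative neurons. Nkx2-1 itself was found in 10 Lhx6 neurons (5.75%) and was not measured in the test. Of 19 LIM homeodomain factors and cofactors, 7 were measured, and 1, Isl1, passed.

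Neuropeptide genes moved in both directions. Of 32 listed, 13 were measured; Crh rose, and Tac1, Vgf and Chgb fell, with a median log2 fold change of -0.45 against 0.01 over all genes tested. Tac1 ran from 11.5 through 118 to 136 CPM in Lhx6 neurons, against 146, 202 and 331 CPM in Lhx6-negative neurons, with no overlap (log2 fold change -1.12 ± 0.16), and was not called after depth matching (-1.12, adjusted p = 0.217). Chgb, a granin of dense core vesicles, averaged 687 ± 92.6 CPM in Lhx6 neurons and 919.7 ± 63.3 CPM in Lhx6-negative neurons. Penk, the enkephalin precursor, averaged 91.2 ± 131 CPM in Lhx6 neurons and 283 ± 100.2 CPM in Lhx6-negative neurons and did not pass (adjusted p = 0.225). Gal, the galanin precursor, averaged 62.7 ± 72.1 CPM in Lhx6 neurons and 230.5 ± 97.2 CPM in Lhx6-negative neurons and did not pass either (adjusted p = 0.138). After each barcode was thinned to 1000 UMIs both were called lower, Penk at -2.27 (adjusted p = 9.99e-06) and Gal at -1.48 (adjusted p = 0.0127). After depth matching Penk was not called (-1.72, adjusted p = 0.457). Penk was found in 13 Lhx6 neurons, and 1 of them held 48 of its 113 UMIs.

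Of 20 genes of vesicle release, 17 were measured; Cplx1, Cplx2, Syt2 and Rab3a rose, and Rab3c and Syn2 fell, where 1.69% of all genes tested rose and 1.65% fell. The list's median log2 fold change was 0.10, against 0.01 over all genes. Cplx2, the second complexin, ran from 515 through 622 to 704.8 CPM in Lhx6 neurons, against 310, 397 and 470 CPM in Lhx6-negative neurons, with no overlap (log2 fold change 0.66 ± 0.08). Syn2, a synapsin that holds vesicles in reserve, averaged 736 ± 163 CPM in Lhx6 neurons and 959.6 ± 189.6 CPM in Lhx6-negative neurons, and Rab3c, a vesicle GTPase, averaged 592 ± 188 CPM in Lhx6 neurons and 779 ± 95.4 CPM in Lhx6-negative neurons. Syt2, the fast calcium sensor of many interneurons, averaged 67.4 ± 40.9 CPM in Lhx6 neurons and 39.4 ± 17.2 CPM in Lhx6-negative neurons. The call of Syt2 ended without high fat diet replicate 4, control replicate 3 or control replicate 5, and that of Rab3a without any 1 of 8 of the 9 mice (adjusted p of 0.0515 to 0.380 for both genes). Rab3a also missed the threshold after depth matching (0.25, adjusted p = 0.147).

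Among genes of GABA handling, Abat, which breaks GABA down, rose (365 ± 99.2 CPM in Lhx6 neurons and 275 ± 51.2 CPM in Lhx6-negative neurons, adjusted p = 0.00583), and the other 4 measured genes outside the rule did not pass. Gad1, Gad2 and Slc32a1 chose both groups and are not tested here; Gad1 stood at 656 ± 104 CPM in Lhx6 neurons and 614 ± 64.6 CPM in Lhx6-negative neurons. Of 21 measured adhesion and synapse genes, Epha5, Lrrc4c and Pcdh7 rose, but each lost its call without any 1 of 4 to 6 of the 9 mice (adjusted p of 0.0557 to 0.228), and Epha5 and Lrrc4c were not called after depth matching. Kcnab1 and Cacna2d1 fell out of 16 voltage-gated channel genes, Ncald fell and Cplx1 rose out of 12 calcium-binding protein genes, and Jun fell out of 5 immediate early genes. After depth matching Ncald moved from -0.33 to -0.096 on the log2 scale and was not called (adjusted p = 0.868). Kcnab1 lost its call without high fat diet replicate 1 or 2 or control replicate 3 (0.0563 to 0.0881), and the neuropeptide-like Vgf without high fat diet replicate 5 or control replicate 3 or 5 (0.0579 to 0.117). No measured gene passed among 11 GABA-A receptor subunits, 10 ionotropic glutamate receptor subunits, 5 receptors for feeding hormones and peptides, or 4 glucocorticoid-responsive genes, with list medians of -0.06, 0.02, 0.01 and 0.22. With 1.69% of all genes tested higher and 1.65% lower, 0 calls in lists this short are not read as a trait of the lists. Of the 40 regional transcription factors, 9 were measured, and 1, Meis2, passed. A gene that missed the threshold is not shown to be equal in the 2 groups.

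Several transcription factors and signalling genes were too low for the main filter, and were named after their values were seen. With every gene tested, 63 of 17924 were higher in Lhx6 neurons (0.351%) and 232 lower, on a scaling that lowered the log2 fold changes of the genes in both fits by a median of 0.11. Nr4a2, an orphan nuclear receptor needed by midbrain dopamine neurons, was among them, and also belongs to the list of immediate early genes. It ran from 0 through 83.9 to 127 CPM in Lhx6 neurons, against 0, 4.71 and 9.43 CPM in Lhx6-negative neurons (log2 fold change 3.46 ± 0.33, adjusted p = 6.23e-22). Lhx8, the LIM homeodomain factor that works beside Lhx6 in the medial ganglionic eminence and specifies cholinergic neurons, ran from 0 through 34.5 to 101 CPM in Lhx6 neurons, against 0, 4.29 and 8.69 CPM in Lhx6-negative neurons (3.14 ± 0.40, adjusted p = 9.27e-12). Both were higher in 8 of 9 mice; Nr4a2 was at 0 in Lhx6 neurons of high fat diet replicate 1 and Lhx8 in those of control replicate 4. Pde1c, a calmodulin-dependent phosphodiesterase, averaged 71.5 ± 49.1 CPM in Lhx6 neurons and 24.8 ± 8.35 CPM in Lhx6-negative neurons (1.36 ± 0.25). Megf11, Bcl11b and Pou3f1 also passed, with log2 fold changes of 1.72 ± 0.33, 1.24 ± 0.32 and 1.45 ± 0.33, and Npas1, a repressor of interneuron genes, did not (1.05 ± 0.32, adjusted p = 0.0631).

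Lhx6 neurons differed among themselves. Genes described above fell on different neurons, and the split described here was chosen after the values were seen and carries no test. Nr4a2 was detected in 23 neurons from 9 mice, Pde1c or Crhbp in 35 neurons from 10 mice, and no neuron had both. The other 116 had neither. From the detection rates within each mouse, 3.02 neurons with Nr4a2 and Pde1c and 2.25 with Nr4a2 and Crhbp were expected. The count of 0 was not tested and does not show that the genes exclude each other. Median depth was 5874 UMIs in the first set, 6840 in the second and 4497 in the third. At such depths a gene that was not caught cannot be told apart from one that was not expressed.

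The Nr4a2 neurons held most of the Crh. Crh was detected in 14 of 23 and accounted for 70.2% of all Crh UMIs of Lhx6 neurons from 13.9% of their UMIs, at 1652 CPM against 167 CPM in Pde1c or Crhbp neurons and 87.6 CPM in the remainder. Crh was found in 42 Lhx6 neurons (24.1%) in all, with up to 50 UMIs in 1 neuron. As many as 9 neurons had 10 or more Crh UMIs, and 7 of these 9 had Nr4a2. Crh was not particular to Lhx6 neurons. Over all barcodes of a kind it stood at 327 CPM in Lhx6 neurons, 315 CPM in the GABAergic barcodes that were set aside for Nts, 178 CPM in those set aside for Ecel1 and Hmx3 and 37.3 CPM in those set aside for Sst, and was found in 24.1, 13.6, 9.37 and 1.40% of them. It was found in 2.55% of glutamatergic barcodes and 0.356% of oligodendrocyte barcodes. Th, the rate-limiting enzyme of dopamine synthesis, was found in 14 of the 23 Nr4a2 neurons and in 4 of the other 151, at 319 CPM against 7.84 CPM. Lhx8 was found in 9 of the 23 (39.1%), Megf11 in 10, Bcl11b, a zinc finger repressor, in 11, and Tac1 in 9. Slc18a2, the vesicle transporter that dopamine neurons need to load their transmitter, had 1 UMI in all Lhx6 neurons (0.965 CPM, against 23.3 CPM in Lhx6-negative neurons). Slc6a3, the dopamine transporter gene, had 0, which allows up to 2.89 CPM over all Lhx6 neurons. The 23 Nr4a2 neurons held 13.9% of these UMIs, so for them alone such counts set a much looser limit.

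Rgs4 and Phactr2, 2 of the genes that rose most, also sat mainly in Nr4a2 neurons. Rgs4 was detected in 19 of 23, at 909 CPM, against 104 CPM in the other 151 Lhx6 neurons and 100.2 CPM in Lhx6-negative neurons. Phactr2 was detected in 18 of 23, at 652 CPM, against 58.3 CPM in the other Lhx6 neurons and 58.8 CPM in Lhx6-negative neurons. Sema3c followed the same split, with 416 CPM against 43.7 CPM in the other Lhx6 neurons and 32.9 CPM in Lhx6-negative neurons. Outside the 23 Nr4a2 neurons, the levels of Rgs4 and Phactr2 in Lhx6 neurons were thus close to those in Lhx6-negative neurons. Prlr was distributed the other way, being found in 1 of the 23.

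Of the 3 sets, the 35 Pde1c or Crhbp neurons had the highest levels of Prlr, Dlx1 and Cplx1. Prlr was found in 29 of 35 (82.9%) at 306 CPM, against 6.94 CPM in Nr4a2 neurons and 132 CPM in the remainder. Dlx1 was found in 27 of 35 (77.1%), at 264 CPM, against 146 CPM in Nr4a2 neurons. Cplx1 was at 945 CPM in this set, 340 CPM in Nr4a2 neurons and 450 CPM in the remainder, all above the 308 CPM of Lhx6-negative neurons. Tac2, the neurokinin B precursor, was found in 18 of 35 and in 0 of 23 Nr4a2 neurons, which allows a share of up to 13.0% there. Pnoc, the nociceptin precursor, was found in 21 of 35 and in 2 of 23, and Calb1, which encodes calbindin, in 21 of 35 and in 3 of 23. Th was found in 0 of 35.

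The 116 remaining neurons included those with Cck, the cholecystokinin gene, which was detected in 11 neurons, all of them here, and Penk in 12 here against 1 in Nr4a2 neurons and 0 in Pde1c or Crhbp neurons. Nkx2-1 was found in 9 here and 1 elsewhere. Calb2, which encodes calretinin, stood at 225 CPM here, 62.5 CPM in Pde1c or Crhbp neurons and 34.7 CPM in Nr4a2 neurons, and at 397 CPM in Lhx6-negative neurons. Among Lhx6-negative neurons, Nr4a2 was found in 27 of 2130 (1.27%), and 16 of these 27 also had Crh, 17 Sema3c, 9 Th and 7 Lhx8, so this pairing of genes also occurred where no Lhx6 UMI was caught. Pde1c was found in 3 of these 27 (11.1%) and in 7.75% of all Lhx6-negative neurons, so Nr4a2 and Pde1c did occur together there.

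**Figure D4:**
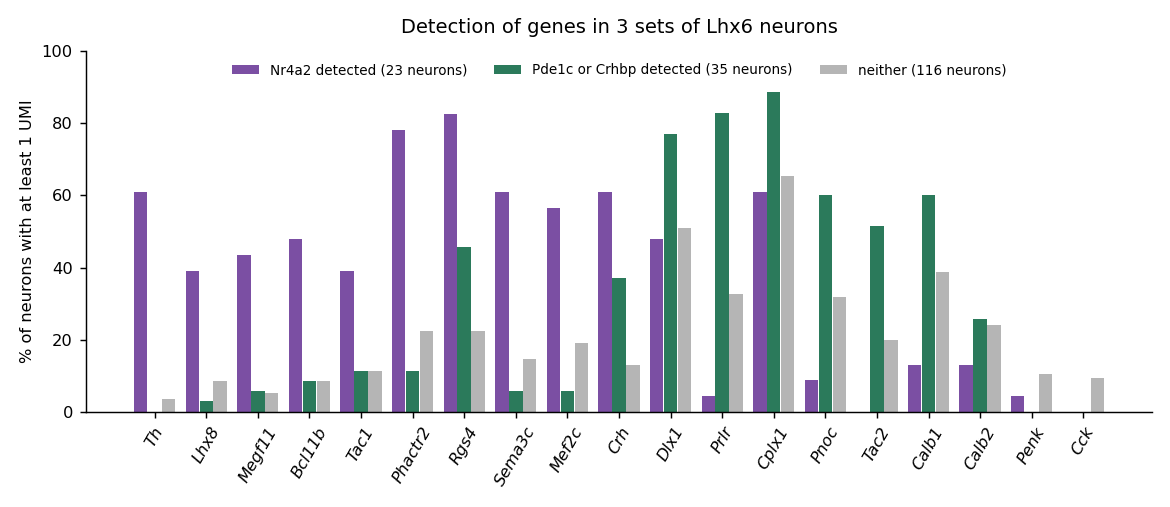
Share of neurons with at least 1 UMI of each gene (%), in the 23 Lhx6 neurons with Nr4a2, the 35 with Pde1c or Crhbp and the 116 with neither, pooled over mice and with no error bars. Th, Lhx8, Megf11, Bcl11b, Phactr2, Rgs4 and Sema3c peak in the first set, Prlr, Pnoc, Tac2 and Calb1 in the second, and Penk and Cck in the third.

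Both sets occurred under both diets. Nr4a2 neurons were 11 of 103 Lhx6 neurons of high fat diet mice (10.7%) and 12 of 71 of control mice (16.9%). Control replicate 1 gave 6 of these 12, and without it they were 6 of 56 (10.7%). Pde1c or Crhbp neurons were 21 (20.4%) in high fat diet mice and 14 (19.7%) in control mice. Crh was found in 27 (26.2%) Lhx6 neurons of high fat diet mice and 15 (21.1%) of control mice. In levels over mice, Nr4a2 averaged 53.3 ± 41.8 CPM in high fat diet mice (SD, n = 5) and 92.5 ± 26.7 CPM in control mice (n = 4; two-sided exact permutation p = 0.159). Lhx8 averaged 56.2 ± 42.7 CPM in high fat diet mice and 25.4 ± 22.4 CPM in control mice. Pde1c averaged 96.8 ± 51.3 CPM in high fat diet mice and 39.9 ± 23.2 CPM in control mice, and Crhbp 23.03 ± 15.5 CPM in high fat diet mice and 31.2 ± 14.2 CPM in control mice. None of the 4 genes passed, with exact permutation p of 0.103 to 0.437 and adjusted p of 0.317 to 0.437 over the 4.

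Last, the diets were compared across all genes within Lhx6 neurons, in 5 high fat diet and 4 control mice with pool as a covariate. No gene passed. Of 2308 genes outside the rule, edgeR called 0 (0%), while 51 had an unadjusted p under 0.05. The count from DESeq2 was 0 as well, and 17 genes had such a p there. These mice had 12 to 34 Lhx6 neurons each, and a gene that missed the threshold is not shown to be unaffected. Levels of Crh, Sema3c, Rgs4, Prlr and Cplx1, which were higher in Lhx6 neurons, overlapped between the diets. Crh was at 22.4, 773, 926, 185 and 184 CPM in high fat diet replicates 1 to 5, against 207, 116, 388 and 267 CPM in control replicates 1, 3, 4 and 5. The control values lie inside the high fat diet range (log2 fold change 0.93 ± 0.90, adjusted p = 0.998). Sema3c was at 134, 112, 51.0, 86.4 and 192 CPM in high fat diet mice, against 253, 38.7, 62.9 and 47.1 CPM in control mice, and its difference had opposite signs in the pools (-0.26 in pool 1 and 1.28 in pool 2, on the log2 scale of CPM plus 10). Rgs4 averaged 226 ± 60.5 CPM in high fat diet mice and 234 ± 109 CPM in control mice. Prlr averaged 175 ± 42.4 CPM in high fat diet mice and 133 ± 73.3 CPM in control mice, and Cplx1 648 ± 163 CPM in high fat diet mice and 481 ± 110 CPM in control mice. None of the 3 passed (log2 fold changes of 0.01, 0.35 and 0.39).

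The genes with the smallest p in each direction were Ostm1, Uqcr11, Ndn, Rnf187 and Brd3, higher in means in high fat diet mice, and Hnrnpd, Tbrg1, Tceal1, Tomm70a and C77370, lower in means, each with adjusted p = 0.998. Ostm1, a lysosomal partner of a chloride transporter, was at 190.1, 168, 144, 148 and 159.8 CPM in high fat diet mice, against 23.02, 103, 73.4 and 78.5 CPM in control mice, with no overlap (unadjusted p = 0.00220). Hnrnpd, an RNA-binding protein, was at 179, 202, 161, 148 and 152 CPM in high fat diet mice, against 242, 284, 357 and 298 CPM in control mice, also with no overlap (unadjusted p = 0.00184). The diets did not overlap in 28 of the 2308 genes (1.21%). Ndn, which encodes necdin, averaged 1359 ± 401 CPM in high fat diet mice and 906 ± 144 CPM in control mice.

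The gene lists were also read for diet. The median log2 fold change over all genes was 0.01. It was -0.11 over 10 measured neuropeptide genes, -0.06 over 5 measured interneuron programme genes, -0.0046 over 15 vesicle release genes and 0.14 over 7 channel genes, and 0 genes of any list passed. Oligodendrocyte transcripts in Lhx6 neurons summed to 340 to 2572 CPM in high fat diet mice and 357 to 1431 CPM in control mice, and the diets overlapped.

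**Figure D5:**
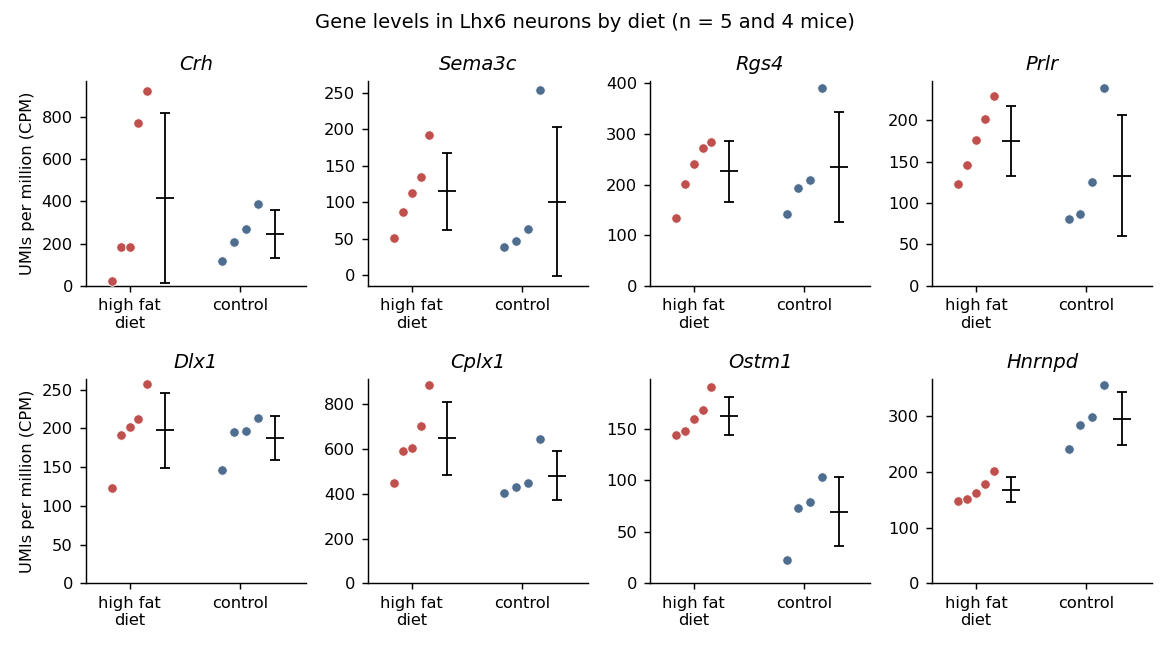
Level in Lhx6 neurons (CPM, linear axes) of 6 genes that mark them and of the genes with the smallest p in each direction, Ostm1 and Hnrnpd, with 1 point per mouse and the mean and SD beside. The diets overlap in the first 6 genes; none of the 8 passed after adjustment.

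Whether diet acted otherwise in Lhx6 neurons than in Lhx6-negative neurons was tested as an interaction. Of 5792 genes, 0 passed in edgeR (0%), where 228 had an unadjusted p under 0.05, and 0 in DESeq2, where 100 did. The values nearest the threshold were those of Necab1, a calcium-binding protein, and Pvalb, which encodes parvalbumin. Necab1 was at 55.9, 0, 25.5, 12.3 and 47.9 CPM in Lhx6 neurons of high fat diet mice, against 149.6, 96.7, 73.4 and 165 CPM in those of control mice, with no overlap (interaction -2.13 on the log2 scale, adjusted p = 0.0721). Pvalb was at 0, 33.6, 25.5, 74.1 and 63.9 CPM in high fat diet mice, against 23.02, 6.45, 0 and 7.85 CPM in control mice (interaction 3.61, adjusted p = 0.0763), on 24 UMIs in Lhx6 neurons over both diets. In Lhx6-negative neurons Pvalb was at 4.35, 9.43, 3.36, 46.1 and 13.5 CPM in high fat diet mice, against 26.1, 52.7, 7.05 and 58.0 CPM in control mice.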

How the data were processed

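Drop-seq libraries of 14 mice were analysed. The authors deposited 1 table of raw UMI counts per mouse, with gene symbols in rows and cell barcodes in columns. Per the submitters' processing notes they used STAR 2.4.2a, Picard 2.2.4 and bcl2fastq 2.18.0.12 with the mouse build mm10 (GRCm38). How UMIs were counted, on which annotation and strand, and how barcodes were chosen is not given in the sources used here, so overlapping and antisense genes cannot be told apart. Total counts ran from 147470 to 5611524 UMIs per mouse over 21568 symbols.

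Barcodes with at least 1000 UMIs and at most 20% mitochondrial UMIs were kept (9891 of 28410). Glutamatergic barcodes had at least 2 Slc17a6 UMIs and none of Gad1, Gad2 or Slc32a1, and oligodendrocyte barcodes had at least 20 UMIs of myelin transcripts and none of Snap25. Scrublet (scanpy 1.11.5, per mouse, expected rate 5%) called 214 of 14963 barcodes (1.43%), which were kept in the main analysis. Of the 28410 barcodes, 110 had a sequence found in more than 1 library.

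Counts were summed per mouse and group where a mouse had at least 10 Lhx6 neurons, and fitted across all genes with edgeR 4.0.16 (TMM scaling, filterByExpr, robust quasi-likelihood test, R 4.3.3), with the mouse as a block for Lhx6 against Lhx6-negative neurons, the pool as a term for diet, and Benjamini-Hochberg adjustment at 0.05. The genes of the rule and mitochondrial genes were left out of the counts of calls. Shares and depth were compared by two-sided exact permutation tests over mice. DESeq2 1.42.0 served as an alternative, and the scripts were tested on simulated data. Intervals and limits from counts of 0 cover counting error only.

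The members, gene lists and tests were chosen with earlier results of these data known. Named genes were the 15 higher and 12 lower genes with the largest log2 fold changes among those called, at 30 CPM or more in the higher group and changed the same way in at least 80% of mice, and for diet the 5 higher and 5 lower genes of smallest p. Genes and sets outside this rule are marked in the text or belong to a list, and some list members are not reported here. Alternatives were another scaling, DESeq2, no filter on low counts, 2000 UMIs, doublets removed, depth matching, thinning to 1000 UMIs, single pools and leaving out each mouse. Alternatives added after seeing the data were the removal of barcodes with at least 20 Pmch or Hcrt UMIs, at least 2 Lhx6 UMIs with 5 barcodes per mouse, and the expected thinned share.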

Additional observations from a re-analysis of the deposited data

Results flagged for a closer look

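In 4 groups of the 77 tested, 1 mouse lay far from the other mice of its diet by Dixon's criterion, which chance flags in about 1 in 20 groups. Sema3c in Lhx6 neurons was at 253.24 CPM in control replicate 1, while the other 3 control mice lay between 38.7 and 62.9 CPM. Mpped2, a putative phosphodiesterase, was at 102.013 CPM in Lhx6 neurons of control replicate 5, and without that mouse its higher level in Lhx6 neurons was no longer called. Pmch was at 259.307 CPM in Lhx6 neurons of high fat diet replicate 4, against 15.98 to 84.9 CPM in the other 4 high fat diet mice, and Pmch in Lhx6-negative neurons of that mouse stood at 12087 CPM. B2m, the light chain of class I major histocompatibility molecules, was at 15.6943 CPM in Lhx6 neurons of control replicate 5 and at 0 in those of the other 3 control mice.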

How the results depend on the processing

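No diet gene passed under any scaling, tool, depth, pool or left-out mouse (0 in each), except that 3 passed with no filter on low counts. The share of Lhx6 neurons kept its direction, with a difference of 0.959 to 3.52 percentage points when 1 mouse was left out, and passed in 1 case, thinning to 1000 UMIs (2.54, exact permutation p = 0.0140). UMIs per neuron differed by -0.205 to -0.115 (log10) over left-out mice. Genes higher in Lhx6 neurons numbered 82, and 45 with DESeq2, 17 with at least 20 barcodes per mouse (3 mice), 54 without high fat diet replicate 1 and the first 2 control replicates, 19 with depth-matched Lhx6-negative barcodes, 4 after thinning, 23 with at least 2 Lhx6 UMIs, and 58 to 82 over left-out mice. Lower genes numbered 80, and 50, 13, 72, 20, 5, 32 and 59 to 82 in the same order, and 232 with no filter, where 63 were higher. After depth matching, which left 2141 genes tested, 17 of the 19 higher and 17 of the 20 lower calls were also in the main result, and Crh missed the threshold (log2 fold change 3.00, adjusted p = 0.0501), as did Prlr (1.46, adjusted p = 0.198). Interaction genes numbered 0, and 3 with no filter, 1 with at least 2000 UMIs, 3 without those 3 mice and 0 to 3 over left-out mice. Those 3 mice are ones that an earlier analysis of these data set apart. Pmch turned to 0.089 without barcodes of at least 20 Pmch or Hcrt UMIs. Over 27 named genes of the Lhx6 comparison, 426 of 480 alternative values kept their call, 53 kept the direction only and 1 reversed; the causes were not tested. At least 2 Lhx6 UMIs with 10 barcodes, and diet with 20 barcodes per mouse, could not be fitted. No paired analysis was possible because replicate numbers follow the listing order and do not pair mice across diets.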

Other observations

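Galanin, a peptide of feeding and arousal circuits, was 1 of the 3 genes that passed for diet only when the filter on low counts was dropped. Gal was at 44.7, 190.5, 153, 12.3 and 119.9 CPM in Lhx6 neurons of high fat diet replicates 1 to 5, against 0, 25.8, 10.5 and 7.85 CPM in those of control replicates 1, 3, 4 and 5 (log2 fold change 2.99, edgeR adjusted p = 0.000540), and the diets overlapped. It was found in 20 Lhx6 neurons in all. Necab1 was lower in high fat diet mice (-1.99, adjusted p = 0.0320) and did not overlap. Crabp1, a retinoic acid binding protein, was at 78.3, 213 and 42.5 CPM in high fat diet replicates 1 to 3 and at 0 in the other 6 mice, so no fold is given.

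Parvalbumin, the calcium buffer of fast-spiking interneurons, was found in 12 of 174 Lhx6 neurons (6.90%). Necab1 and Pvalb passed as interaction genes without high fat diet replicate 1 and again without control replicate 1, where Syt1 passed as well, and Necab1 passed without control replicate 4.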
